A study of Mus musculus with 9 samples.

Results

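Erythroid and haemoglobin genes were followed through the RNA of the mouse trigeminal ganglion (TG) as a measure of the blood that each tissue sample carried. The 6 genes were chosen by name: the adult alpha globin genes Hba-a1 and Hba-a2, the adult beta globin genes Hbb-bs and Hbb-bt, Alas2 and Slc4a1. All 6 were found among 21809 genes of the mRNA table, where the FPKM (sequenced fragments relative to transcript length and to the depth of the library) of all annotated transcripts of a gene were summed. All 6 passed the filter of a mean of at least 0.1 FPKM, as did 16096 genes in all.

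The TG was taken from 8-week-old male wild-type C57BL/6 mice after an injection into the temporomandibular joint (TMJ). There were 3 groups of 3 libraries: saline (replicates 1 to 3, labelled day 3), complete Freund's adjuvant on day 3 (CFA3D, replicates 1 to 3) and on day 6 (CFA6D, replicates 4 to 6). Complete Freund's adjuvant is a suspension of killed mycobacteria in oil that causes a local inflammation. Each library was a pool of unilateral TG punches from 3 mice, so n = 3 pools per group, and nothing in the methods speaks of clearing the tissue of blood. The injected joint itself was not sequenced.

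Red blood cells of adult mammals have no nucleus. Their last immature stage, the reticulocyte, still carries large amounts of globin mRNA, which directs the alpha and beta chains of haemoglobin, and enters the circulation with it. Alas2 encodes the erythroid form of the enzyme that performs the first and rate-limiting step of haem synthesis, and its mRNA also persists in reticulocytes. Slc4a1 encodes band 3, the anion exchanger that ties the red cell membrane to its skeleton. Transcription factors such as Gata1 and Klf1 act earlier, in nucleated erythroid precursors, which in adult mice reside mainly in bone marrow and spleen. In bulk tissue, fewer cells of a type and less RNA per cell cannot be told apart.

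The libraries held about 30000000 to 42200000 mapped read pairs, as read from the FPKM that 1 read pair is worth. Markers of the labelled tissue were high in all 9 libraries: the summed FPKM of 10 sensory neuron genes lay between 1755 and 2527, and that of 7 Schwann and satellite glia genes between 2769 and 3554. Some libraries stood apart in markers of other tissues. Saline replicate 2 held 140 FPKM of adipocyte genes, against 6.03 to 11.8 in the other libraries, and 159 FPKM of skeletal muscle genes, against 1.63 to 70.0. Saline replicate 3 held 10656 FPKM of pituitary genes, against 8.89 to 1115 elsewhere. CFA6D replicate 6 held 2929 FPKM of neutrophil and marrow granule genes, against 31.8 to 155, and 23.9 FPKM of genes of proliferating cells, against 1.66 to 3.36. Values of the 6 genes with single libraries left out are given beside the comparisons.

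Positions are given in GRCm38. Hba-a1 (chr11:32283511-32284465) and Hba-a2 (chr11:32296489-32297298) are neighbours on the plus strand of chromosome 11, and Slc4a1 (chr11:102348824-102366203) lies far from them on the minus strand. Hbb-bs (chr7:103826534-103828096) and Hbb-bt (chr7:103812524-103813996) are neighbours on the minus strand of chromosome 7, and Alas2 (chrX:150547375-150570638) is on the plus strand of the X chromosome. The 250 bases before the RefSeq transcription start are shown, 5′ to 3′, because 5 of the 6 genes moved together across libraries. The spans above cover all GENCODE transcripts of a gene, and each printed window reaches into the span of its gene. The sequences are from RefSeq (GRCm38.p6), whose table held 5 of the 6 genes and not Slc4a1. Capitals mark matches on either strand to the GATA motif (searched as AGATAA, also as AGATAG, then as TGATAA and lastly as TGATAG) and to the letters CACCC, to CCAAT and to TATAA. In Alas2 and Hbb-bt some of the capitals read as the reverse complement.
Hba-a2 (chr11:32296242-32296491, plus strand): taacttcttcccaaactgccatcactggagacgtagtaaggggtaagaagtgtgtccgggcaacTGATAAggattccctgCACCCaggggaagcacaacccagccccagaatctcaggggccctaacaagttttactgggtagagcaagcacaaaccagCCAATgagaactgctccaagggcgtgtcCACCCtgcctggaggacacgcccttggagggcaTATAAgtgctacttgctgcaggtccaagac
Hbb-bs (chr7:103827929-103828178, minus strand): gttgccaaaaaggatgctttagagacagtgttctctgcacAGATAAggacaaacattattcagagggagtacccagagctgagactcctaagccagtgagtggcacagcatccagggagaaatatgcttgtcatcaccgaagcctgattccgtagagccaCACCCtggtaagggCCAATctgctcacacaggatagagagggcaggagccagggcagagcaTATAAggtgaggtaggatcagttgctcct
Hbb-bt (chr7:103813924-103814173, minus strand): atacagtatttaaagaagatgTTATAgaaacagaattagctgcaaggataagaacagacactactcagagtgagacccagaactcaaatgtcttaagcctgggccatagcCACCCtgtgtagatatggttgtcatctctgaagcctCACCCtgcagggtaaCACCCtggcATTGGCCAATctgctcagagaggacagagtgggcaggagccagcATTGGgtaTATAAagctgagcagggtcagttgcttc
Alas2 (chrX:150547167-150547416, plus strand): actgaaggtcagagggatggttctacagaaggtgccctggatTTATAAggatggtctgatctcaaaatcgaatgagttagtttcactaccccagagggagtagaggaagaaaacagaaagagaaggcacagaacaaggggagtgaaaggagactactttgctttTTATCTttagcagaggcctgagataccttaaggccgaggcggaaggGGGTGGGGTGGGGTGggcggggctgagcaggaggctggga

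A GATA motif stood in 4 of these 5 windows, all but that of Hbb-bt, and in 26.5% of 32851 RefSeq windows of the same length. CACCC stood in all 5 windows, against 52.0% of all windows. CCAAT stood in 4 of 5, all but Alas2, against 33.8%, and TATAA in 5 of 5, against 22.8%. In the 4 globin windows a TATAA lay with its first base 27 to 30 bases before the start, and a plus-strand CCAAT lay 75 to 91 bases before it. The TATAA letters of Alas2 lay further away, at 207 bases. These are matches of letters in a window and say nothing of binding in these samples. The windows of Hba-a1 and Hba-a2 are 97.6% identical, so their matches are not independent in the counts above.

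The Hba-a1 window is not printed, since it holds a run of 247 bases in common with that of Hba-a2. The paired genes are also near copies of each other in their transcripts. The longest open reading frames of Hba-a1 and Hba-a2 differ by 1 base of 429, with a longest identical run of 380 bases. Those of Hbb-bs and Hbb-bt differ by 1 base of 444, with an identical run of 416 bases, whereas their promoter windows are 69.3% identical. How reads were shared between such copies is not given in the sources used here, so the split within each pair is uncertain and the sum of a pair is the firmer value.

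Alpha globin mRNA was present at high levels in every ganglion library. Hba-a1 was at 1019, 2041 and 719 FPKM in saline replicates 1, 2 and 3. It was at 605, 1215 and 552 FPKM in CFA3D replicates 1, 2 and 3, and at 755, 841 and 977 FPKM in CFA6D replicates 4, 5 and 6. Saline replicate 2 was the highest library, followed by CFA3D replicate 2, and the 3 groups overlapped. Hba-a2, which encodes the same chain, was at 751, 1471 and 544 FPKM in saline, 437, 882 and 413 FPKM on CFA3D, and 555, 605 and 686 FPKM on CFA6D, in the same order of replicates. Its libraries stood in the same places as those of Hba-a1, and the ratio of Hba-a1 to Hba-a2 stayed between 1.32 and 1.42. As means, Hba-a1 was 1259 ± 693 FPKM (SD, n = 3) in saline, 791 ± 369 on CFA3D and 858 ± 112 on CFA6D.

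Beta globin mRNA showed the same libraries at the top. Hbb-bs was at 1061, 1719 and 720 FPKM in saline replicates 1 to 3, 602, 1352 and 522 FPKM in CFA3D replicates 1 to 3, and 667, 838 and 858 FPKM in CFA6D replicates 4 to 6. Hbb-bt was at 332, 528 and 194 FPKM in saline, 177, 388 and 168 FPKM on CFA3D, and 195, 235 and 258 FPKM on CFA6D. Both were highest in saline replicate 2 and lowest in CFA3D replicate 3, and no group stood clear of another. Hbb-bs exceeded Hbb-bt 3.10 to 3.72 times in every library. The group means of Hbb-bs were 1167 ± 508 FPKM in saline, 825 ± 458 on CFA3D and 788 ± 105 on CFA6D (SD, n = 3).

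The 4 globin genes together made up 0.104% (CFA3D replicate 3) to 0.362% (saline replicate 2) of the mapped fragments. The ranges of the groups overlapped: the globin sum was 2177 to 5759 FPKM in saline, 1655 to 3838 on CFA3D and 2171 to 2780 on CFA6D. Alpha and beta chains were expressed in near-constant proportion, with an alpha to beta ratio of 1.21 to 1.56. The lowest ratio belonged to CFA3D replicate 2 and the highest to saline replicate 2, which were the 2 libraries richest in globin.

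Alas2 was expressed far below the globins and followed them from library to library. It was at 18.9, 29.9 and 14.3 FPKM in saline replicates 1 to 3, 13.8, 24.0 and 12.2 FPKM in CFA3D replicates 1 to 3, and 13.8, 15.8 and 18.1 FPKM in CFA6D replicates 4 to 6. The order of libraries was that of the beta globin sum in all 9 libraries. Per 1000 FPKM of globin there were 5.20 (saline replicate 2) to 7.58 (CFA3D replicate 1) FPKM of Alas2, so that Alas2 varied less than the globins did: the highest library exceeded the lowest 2.45 times for Alas2 and 3.48 times for the globin sum. The group means were 21.1 ± 8.04 FPKM in saline, 16.7 ± 6.40 on CFA3D and 15.9 ± 2.14 on CFA6D (SD, n = 3).

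Slc4a1 did not follow this pattern. It was at 1.14, 1.29 and 0.467 FPKM in saline replicates 1 to 3, 0.479, 0.840 and 0.194 FPKM in CFA3D replicates 1 to 3, and 1.24, 0.835 and 8.73 FPKM in CFA6D replicates 4 to 6. CFA6D replicate 6 was far above all others, at 6.74 times the next library, although its globin level was ordinary. About 1401 read pairs lay behind that value and 31.8 to 219 behind those of the other libraries. Per 1000 FPKM of globin, Slc4a1 was at 3.14 FPKM in CFA6D replicate 6 and at 0.117 to 0.569 FPKM in the other libraries. Its group means were 0.969 ± 0.441 FPKM in saline, 0.504 ± 0.324 on CFA3D and 3.60 ± 4.45 on CFA6D (SD, n = 3), the last of which is carried by 1 library.

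**Figure D1:**
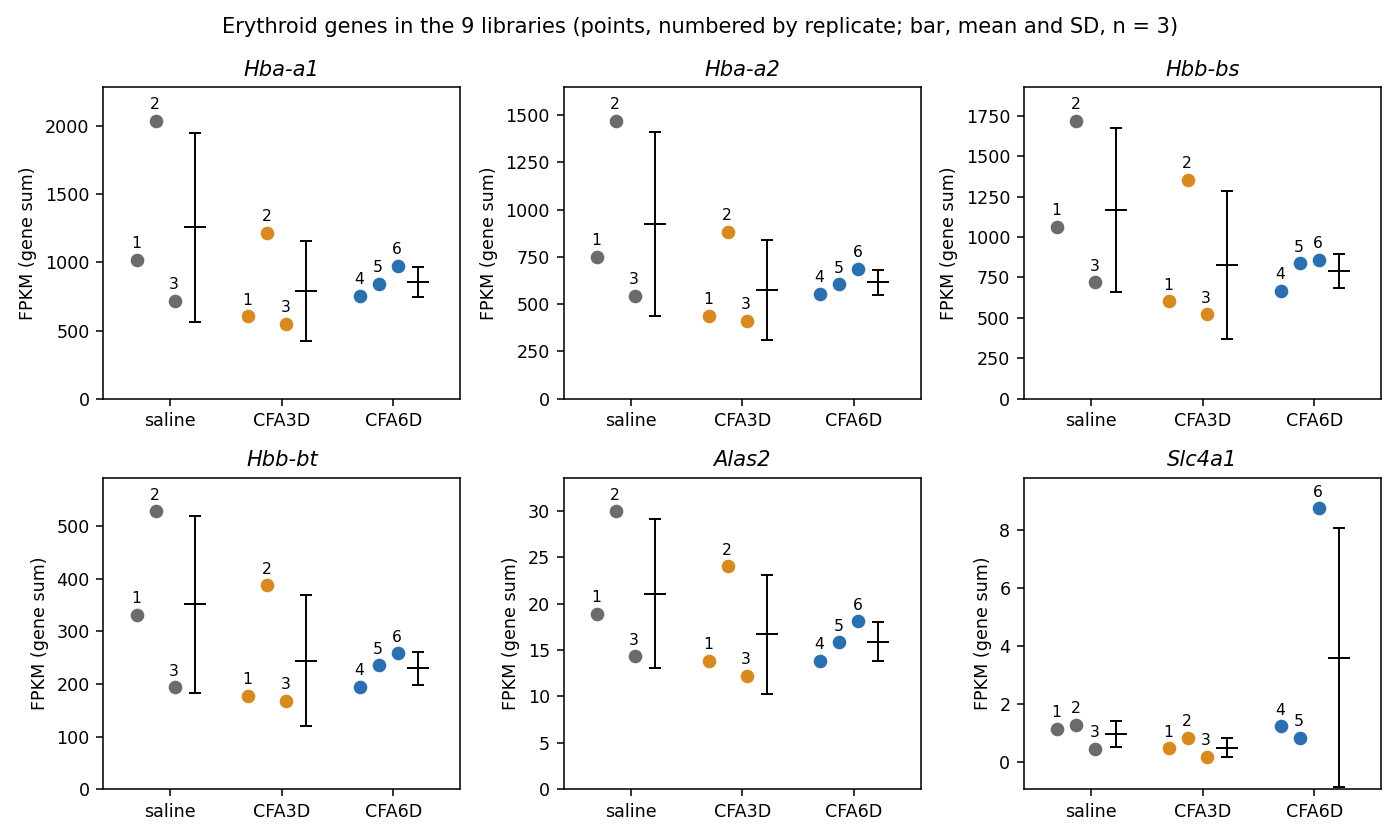
FPKM summed over the transcripts of each of the 6 genes (vertical axes, linear) in saline, CFA3D and CFA6D; points are libraries labelled with their replicate number, and bars give the mean and SD (n = 3). Replicate 2 of saline and of CFA3D is the highest of its group in all 6 genes, whereas Slc4a1 is at 8.73 FPKM in CFA6D replicate 6.

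The question of each comparison was whether the blood genes differed between saline and CFA ganglia or between the days. The limma model was fitted to log2(FPKM + 0.1) of all genes tested, and a call required p under 0.05, without adjustment, together with a change of 1 or more on the log2 scale. None of the 6 genes was called on CFA3D against saline, where 0.342% of all genes tested were called, and none reached an unadjusted p under 0.05. None was called on CFA6D against saline, where 0.584% of all genes were, and none with both CFA days against saline, where 0.292% were. On CFA6D against CFA3D, 1 of the 6 was called, Slc4a1, against 0.770% of all genes. None of the 6 genes had a Benjamini-Hochberg adjusted p under 0.05 in these comparisons. The comparisons with saline share their control libraries. None of the 6 genes had groups that stood clear of each other on CFA3D against saline (9.13% of all genes did), on CFA6D against saline (16.2%) or on CFA6D against CFA3D (16.7%).

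All 5 genes other than Slc4a1 had lower means after CFA, by less than the spread between libraries. On CFA3D the log2 fold change was -0.63 (SE 0.40) for Hba-a1, -0.64 (SE 0.38) for Hba-a2, -0.54 (SE 0.39) for Hbb-bs and -0.52 (SE 0.39) for Hbb-bt. The 95% interval of Hba-a1, from -1.52 to 0.26, held both no change and a fall by more than the fold limit. On CFA6D the 4 values were -0.42, -0.46, -0.48 and -0.51, with adjusted p-values of 0.683 to 0.732 by limma. For Alas2 the log2 fold change was -0.33 (SE 0.30) on CFA3D and -0.34 (SE 0.30) on CFA6D. The median over the 6 genes was -0.59 on CFA3D and -0.44 on CFA6D, and that over all genes tested was 0.05 and 0.03.

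For both CFA days against saline the exact two-sided permutation test over all 84 divisions of the libraries could reach 0.0238. The exact permutation p was 0.286 for Hba-a1, 0.238 for Hba-a2, 0.214 for Hbb-bs, 0.262 for Hbb-bt and 0.286 for Alas2, with differences of -0.34 to -0.55 on the log2 scale. In each of these 5 genes, 5 of 6 CFA libraries lay below the median of saline, CFA3D replicate 2 being the exception. For Slc4a1 the difference was 0.14 and the exact p was 1. With 3 libraries against 3 an exact permutation test cannot go below 0.1, so none was run for the single days.

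The globin values depended on which libraries were kept. Without CFA3D replicate 2, the log2 fold changes of the 4 globin genes on CFA3D were -0.91 to -0.99 and that of Alas2 was -0.63, all 5 with an unadjusted p under 0.05. Without saline replicate 3, the pituitary-rich library, Hba-a1, Hba-a2 and Hbb-bt were at -0.96, -0.96 and -0.89, again with an unadjusted p under 0.05. All of these lay short of the fold limit, and the adjusted p by limma was 1.00 in both settings. Without saline replicate 2, the adipocyte-rich and muscle-rich library, the CFA3D values of the globins were between -0.17 and -0.24. On CFA6D the 4 globin values lay between -0.0049 (Hba-a1) and -0.16 (Hbb-bs) without saline replicate 2 and between -0.76 and -0.88 without saline replicate 3, where Hbb-bt alone had an unadjusted p under 0.05 (adjusted p = 0.424 by limma). For both CFA days they lay between -0.11 and -0.19 without saline replicate 2. Without saline replicate 3 they lay between -0.82 and -0.88, and without CFA3D replicate 2 between -0.70 and -0.73, with an unadjusted p under 0.05 for all 4 in each case and adjusted p-values of at least 0.582 by limma. Alas2 lay at -0.06 and -0.59 on CFA6D without saline replicates 2 and 3. None of these was called.

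On CFA6D against CFA3D, Slc4a1 had a log2 fold change of 2.03 (SE 0.79, 95% interval 0.25 to 3.82), with an adjusted p of 0.641 by limma. The libraries of the 2 days overlapped, since CFA6D replicate 5 was at 0.835 FPKM and CFA3D replicate 2 at 0.840 FPKM. Without CFA6D replicate 6 the value was 1.04, and the gene was not called. It was not called either without CFA3D replicate 3, the lowest library (1.59), or without CFA3D replicate 1 (2.08). The other 5 genes differed between the days by -0.01 to 0.20. The difference of Slc4a1 was -0.87 (SE 0.79) on CFA3D and 1.16 (SE 0.79) on CFA6D against saline, and neither was called. The latter was 0.17 without CFA6D replicate 6 and 0.76 without saline replicate 3. With both that library and saline replicate 3 left out, the difference between the days was 1.04 (SE 0.45, adjusted p = 0.704 by limma) and was called.

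**Figure D2:**
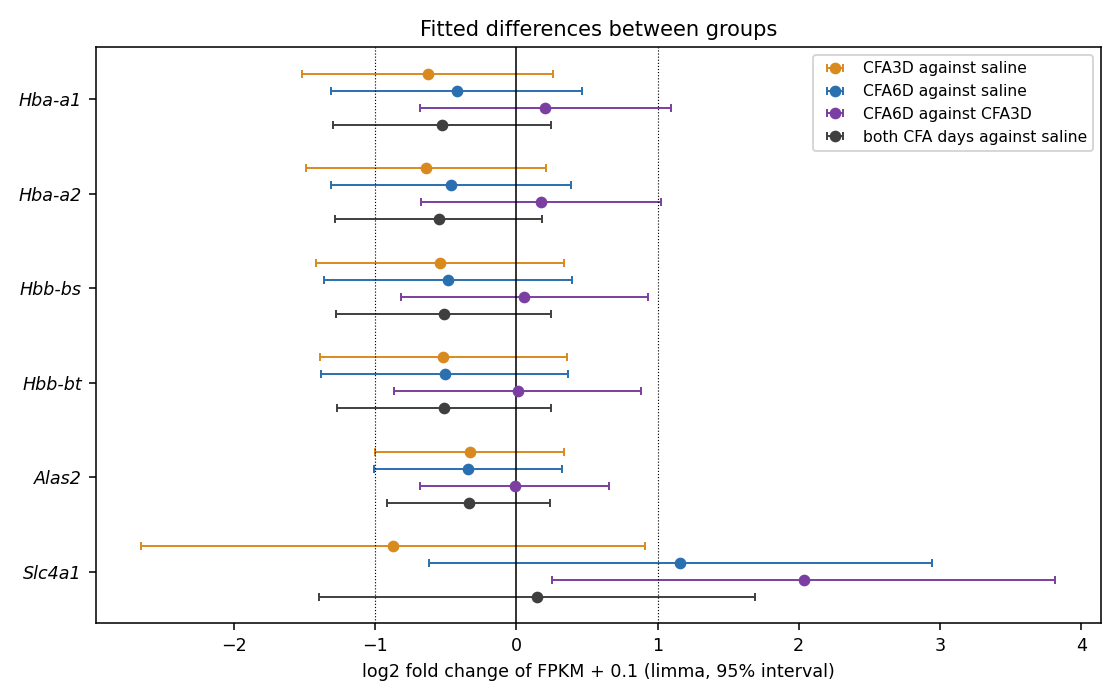
Log2 fold changes of FPKM + 0.1 (horizontal axis) with 95% intervals from limma for the 6 genes in 4 comparisons; dotted lines mark a log2 fold change of 1 in either direction. The interval of Slc4a1 on CFA6D against CFA3D, 0.25 to 3.82, is the only one that leaves out 0.

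As a measure of blood, the genes were next compared with each other over the 9 libraries, in 6 relations among the alpha globin sum, the beta globin sum, Alas2 and Slc4a1. Alpha and beta globin rose and fell together, with Pearson's r = 0.977 (exact permutation p = 5.51e-06, adjusted 1.65e-05) and Spearman's rho = 0.983 (exact permutation p = 4.96e-05, adjusted 9.92e-05). Beta globin and Alas2 gave r = 0.988 (exact permutation p = 2.76e-06, the smallest these permutations can give, adjusted 1.65e-05) and rho = 1 (exact permutation p = 5.51e-06, adjusted 3.31e-05). Alpha globin and Alas2 gave r = 0.977 (exact permutation p = 8.27e-06, adjusted 1.65e-05) and rho = 0.983 (exact permutation p = 4.96e-05, adjusted 9.92e-05). These 3 relations held without the 2 libraries farthest from the median (r = 0.947 to 0.966) and for deviations from the group means (r = 0.978 to 0.992). Values of 1 library share its depth and scaling.

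Slc4a1 was related more loosely to the others. It gave r = 0.440 with alpha globin (exact permutation p = 0.222, adjusted 0.332) and rho = 0.733 (exact permutation p = 0.0311, adjusted 0.0467). With beta globin it gave r = 0.369 (exact permutation p = 0.334, adjusted 0.334) and rho = 0.650 (exact permutation p = 0.0666, adjusted 0.0666). With Alas2 it gave r = 0.399 (exact permutation p = 0.285, adjusted 0.334) and rho = 0.650 (exact permutation p = 0.0666, adjusted 0.0666). Without the 2 libraries farthest from the median, r was 0.397, 0.597 and 0.736 in the same order. Leaving out CFA6D replicate 6 alone raised r to 0.718, 0.693 and 0.641.

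**Figure D3:**
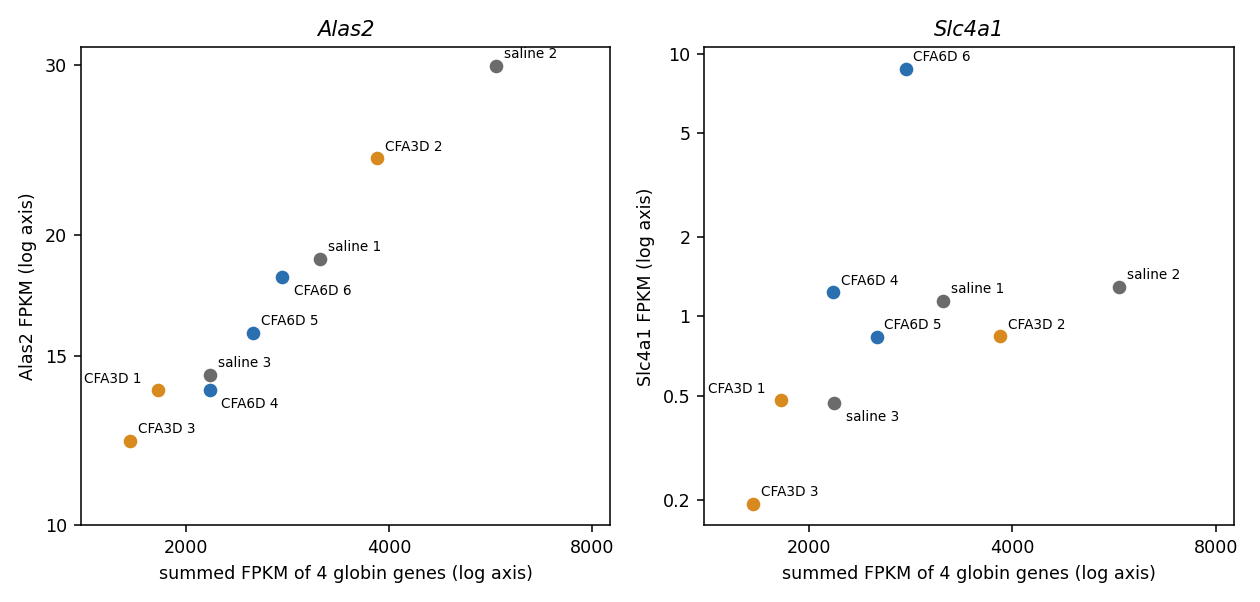
Alas2 (left) and Slc4a1 (right) in FPKM against the summed FPKM of the 4 globin genes in each of the 9 libraries, all on log axes; points are libraries, coloured by group. Alas2 lies close to a line with the globins (r = 0.987 to their sum), whereas CFA6D replicate 6 lies far above the others in Slc4a1.

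CFA6D replicate 6 was also the highest library for many other genes of red cell development. Among 17 tested regulators and late erythroid genes (Ahsp was not analysed here) 4 passed the filter only through this library (Gata1, Gfi1b, Hemgn and Tspo2), and among 14 tested red cell membrane genes 3 did (Rhag, Kel and Ermap), so that the filter itself selected them for a high value there. Of the other 13 regulators and late genes it was the highest library for 7, of which 5 exceeded the next library at least 2 times. Of the other 11 membrane genes it was the highest for 5, of which 4 did so by at least 2 times. Of all 15989 genes that passed the filter without it, 2721 were highest there and 454 (2.84%) by at least 2 times. The genes named next were chosen after their values were seen. Gata1, the master transcription factor of the erythroid lineage, was at 1.01 FPKM there and at most 0.154 FPKM elsewhere. Klf1, which activates the adult beta globin genes, was at 1.64 FPKM there and at 0.0853 to 0.305 FPKM elsewhere.

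Further genes of nucleated erythroid precursors are given as levels, and of these Hemgn, Ermap and Rhag passed the filter through CFA6D replicate 6 alone. Hemgn, a nuclear protein of blood precursors, was at 1.66 FPKM in CFA6D replicate 6 and at 0.0112 to 0.163 FPKM elsewhere. Ermap, an erythroid membrane protein, was at 1.33 FPKM and at most 0.0271 FPKM elsewhere. Rhag and Rhd, of the Rh complex, were at 0.938 and 2.27 FPKM there, 9.87 and 6.34 times the next library. Other genes of the same lists were not highest there: Prdx2 was highest in saline replicate 1 and Ank1 in CFA6D replicate 4. The globins and Alas2 were not raised in step: the globin sum of CFA6D replicate 6 was 1.18 times the median of the other 8 libraries, and Alas2 1.20 times, whereas Slc4a1 was 10.4 times that median.

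In the fits, none of the 14 red cell membrane genes was called on CFA3D against saline. Kel, a blood group glycoprotein, passed the fold and p limits on CFA6D against saline, and Gfi1b, a repressor needed for red cell and megakaryocyte development, did so on CFA6D against saline and against CFA3D. Both passed the filter through CFA6D replicate 6 alone, which selects for such a difference, and neither was called without that library, so they are given as levels. Kel was at 1.78 FPKM there and at most 0.281 FPKM elsewhere. None of the 3 saline libraries had a value above 0 for Gfi1b, and it was at 0.0748, 0.102 and 0.759 FPKM on CFA6D, about 1.00, 6.99 and 49.1 read pairs. The signs and sizes of the list values also depended in part on that library. With it, all 14 membrane genes had positive values on CFA6D against saline and against CFA3D, with median differences of 0.44 and 0.58 (0.03 and -0.02 over all genes). Without it, in an alternative added after seeing the data, 10 and 11 of the 14 did. The median differences stayed positive, at 0.23 and 0.21 on the log2 scale (-0.0037 and -0.045 over all genes). The most abundant membrane genes did not follow the globins, as a description chosen later. Ank1, Sptb, Add2, Dmtn and Tmod1 gave r of -0.39, -0.24, -0.35, -0.49 and -0.21 with the globin sum, and Epb41 gave 0.15. Which cells carried these genes was not tested. For the 17 regulators and late genes the median was 0.61 and 0.68 with that library, and without it -0.13 and 0.03, with 4 and 9 of the 17 positive.

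**Figure D4:**
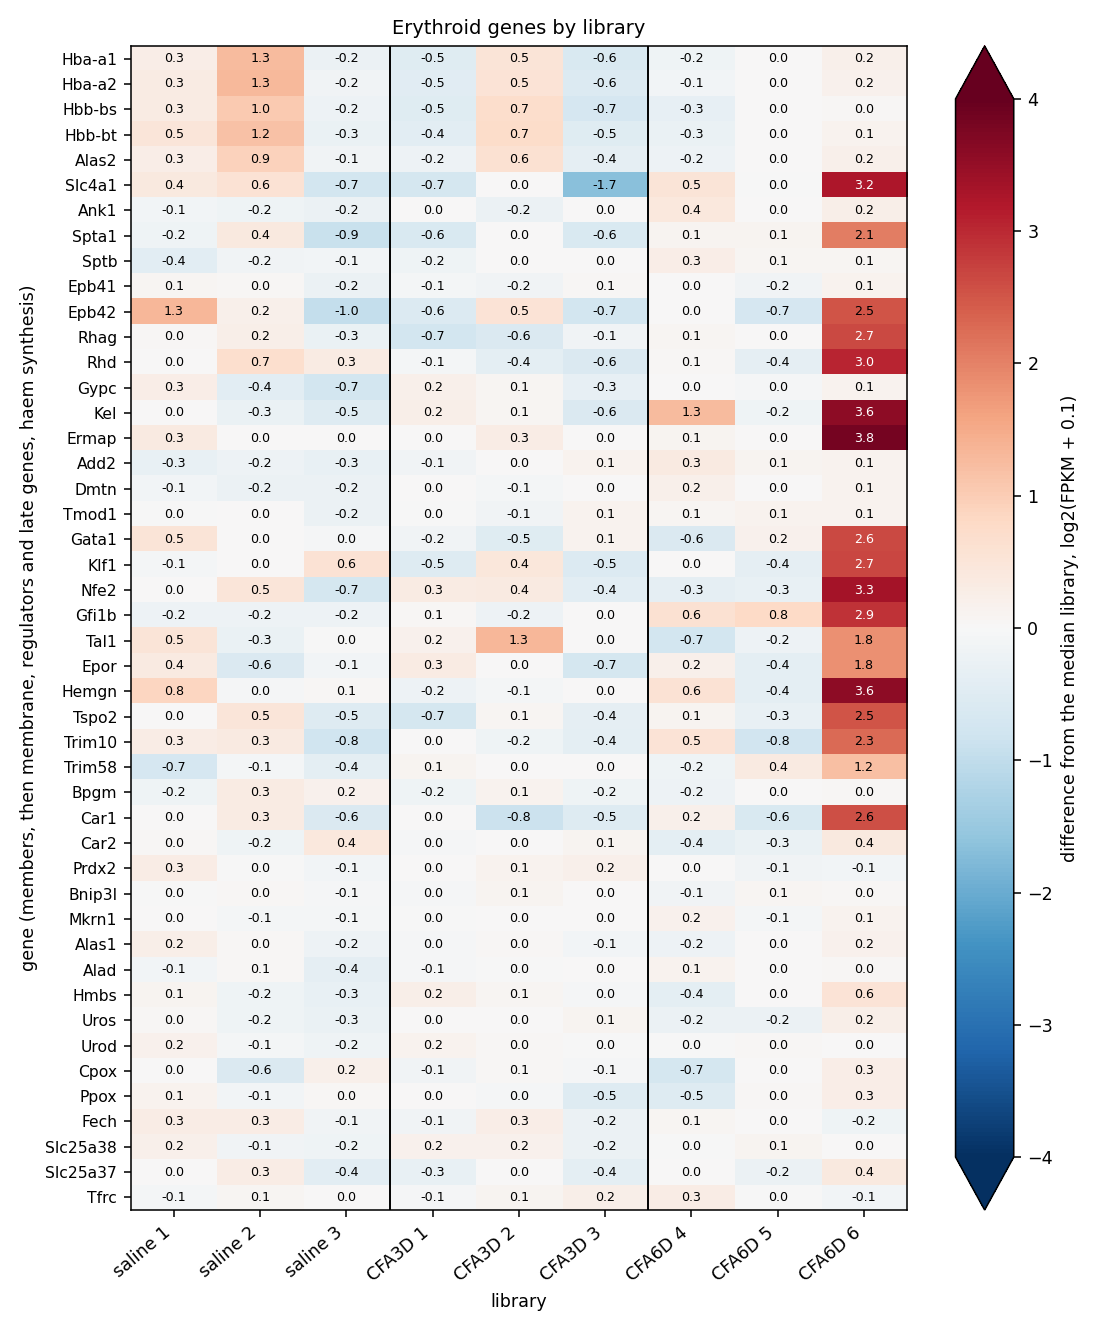
Difference of log2(FPKM + 0.1) from the median of the 9 libraries for the 6 genes and for most listed genes of the red cell membrane, erythroid regulation and haem synthesis (rows) in each library (columns); colours end at 4 in either direction. The globins and Alas2 are highest in saline replicate 2, and Slc4a1 with precursor genes such as Gata1, Klf1 and Hemgn in CFA6D replicate 6.

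The genes of haem synthesis differed in how closely they followed the globins. None of 11 tested haem synthesis genes was called in any comparison, and their median log2 fold change was 0.08 on CFA3D and 0.06 on CFA6D against saline. Most of these genes are used by every cell type. The 2 most abundant were Urod (a cytosolic decarboxylase of the pathway) and Tfrc (the transferrin receptor, which brings iron into cells). They were at 23.0 to 29.5 FPKM and 19.9 to 26.9 FPKM. Alas1, the housekeeping counterpart of Alas2, was at 12.1 to 16.4 FPKM, close to Alas2 itself in level per length. Fech, which inserts the iron into haem, was the list's gene nearest to the globins, with r = 0.814 over the 9 libraries as a description, followed by Slc25a37, a mitochondrial iron importer, with 0.726, whereas Urod and Tfrc gave -0.091 and -0.179. The summed list gave r = 0.435 with the globin sum (exact permutation p = 0.243, rho = 0.533) and 0.721 without saline replicate 2.

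The other globins were low or belonged to other cells. The embryonic genes Hbb-bh1 and Hbb-bh2 were listed at 0 in all 9 libraries, and Hbb-y and Hba-x in 8 of 9. Hbq1a and Hbq1b were at 0.321 to 0.958 and 1.62 to 2.51 FPKM, led by CFA3D replicates 2 and 3, respectively. Of 5 tested genes of this list, 1 was called, Mb (myoglobin, the oxygen store of muscle), with a log2 fold change of -3.73 on CFA3D (SE 1.42, adjusted p = 0.997 by limma) and -2.97 for both CFA days (SE 1.23, adjusted p = 0.569 by limma). Mb was highest in saline replicate 2, CFA6D replicate 6 and saline replicate 1, at 12.0, 5.38 and 2.96 FPKM, the 3 libraries that were also highest in the skeletal muscle sum, and was not called without saline replicate 2. The alpha globin pseudogene Hba-ps4 of the other noncoding table was at 0.612 to 1.29 FPKM, highest in saline replicate 2.

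Of 12 genes of haem breakdown and iron handling, 1 was called, Hp (haptoglobin, which binds free haemoglobin), at 2.37 on CFA6D against CFA3D (SE 1.03, adjusted p = 0.671 by limma). Hp was at 37.2 FPKM in CFA6D replicate 6, 14.6 in saline replicate 2 and 0.890 to 3.76 FPKM elsewhere. Without CFA6D replicate 6 it was at 1.15 and not called. Hmox1, the inducible enzyme that breaks down haem, was at 7.05 to 9.94 FPKM and was not called in any comparison.

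Markers of other blood cells were compared with the globins in the same way. The globin sum gave r = 0.278 with 10 platelet genes, 0.226 with 12 neutrophil and marrow granule genes and 0.410 with 10 lymphocyte genes (exact permutation p = 0.446, 0.539 and 0.271). Their rho values were 0.683, 0.383 and 0.750 (exact permutation p = 0.0503, 0.312 and 0.0255). Over all 16 lists the adjusted p was at least 0.429 for r and 0.268 for rho, so no list was shown to follow the globins. The highest values were r = 0.723 for adipocyte genes (exact permutation p = 0.0536, rho = 0.267), 0.696 for the other globins (exact permutation p = 0.0369, rho = 0.683) and 0.581 for skeletal muscle genes (exact permutation p = 0.0989, rho = 0.400). Without saline replicate 2 they were 0.0151, 0.383 and 0.216. Among the other globins, as a description, Mb gave r = 0.593, whereas Hbq1b, Cygb and Ngb gave -0.324, -0.118 and 0.079. Saline replicate 2 was the highest for 6 of 6 adipocyte genes, 7 of 7 muscle genes and 5 of the 6 blood genes, against 4.14% of all genes tested. It led by at least 2 times in 6 of 6, 5 of 7 and 0 of 6 of them, against 0.32% of all genes. What part the extra tissue had in the globin level was not tested. Endothelial genes, which mark the vessel wall, gave r = 0.071 with the globin sum (exact permutation p = 0.849, rho = 0.033). Sensory neuron genes gave r = -0.342 and Schwann and satellite glia genes -0.160 (exact permutation p = 0.366 and 0.677), with rho of -0.583 and -0.250.

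Slc4a1 kept other company. These relations were added after the values had been seen, over the same 16 lists, and those with an adjusted p under 0.05 for r come first. Slc4a1 gave r = 0.967 with neutrophil and marrow granule genes (exact permutation p = 0.000397, adjusted 0.00635) and rho = 0.767 (exact permutation p = 0.0214, adjusted 0.114). Without the 2 libraries farthest from the median r was 0.799, without CFA6D replicate 6 it was 0.894, and for deviations from the group means 0.955. With genes of proliferating cells it gave r = 0.906 (exact permutation p = 0.00540, adjusted 0.0432) and rho = 0.783 (exact permutation p = 0.0172, adjusted 0.114), and r was 0.808 without the 2 farthest libraries and 0.621 without CFA6D replicate 6. With platelet genes it gave r = 0.895 (exact permutation p = 0.00856, adjusted 0.0456) and rho = 0.633 (exact permutation p = 0.0760, adjusted 0.203), but r was 0.160 without the 2 farthest libraries. The highest rho over the 16 lists was that with the other globins, 0.850 (exact permutation p = 0.00607, adjusted 0.0972). Their r was 0.669 (exact permutation p = 0.0488, adjusted 0.156). Cygb, at 10.5 to 14.8 FPKM, and Mb, at up to 12.0 FPKM, made up most of their sum. Red cell membrane genes gave r = 0.506 and regulators and late erythroid genes 0.327 (exact permutation p = 0.170 and 0.421). Both sums are carried by abundant genes such as Ank1 (31.8 to 50.0 FPKM) and Prdx2 (76.0 to 104 FPKM), whereas Gata1 and Klf1 reached 1.01 and 1.64 FPKM. They therefore say little of precursor genes, whose single relations to Slc4a1 were not tested.

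The granule genes were the list with most calls. On CFA6D against CFA3D 8 of 12 were called and 12 of 12 had positive values, with a median log2 fold change of 2.74 (1.24 without CFA6D replicate 6, with 12 of 12 still positive), and on CFA6D against saline 2 of 12 were (S100a8 at 2.32 and Retnlg at 2.24, SE 1.03 and 0.88). S100a8 and S100a9, calcium-binding proteins of neutrophils, stood at 3.16 and 3.32 against CFA3D (SE 1.03 and 1.01, adjusted p = 0.622 and 0.616 by limma). Ngp, Camp, Ltf, Mmp8, Mpo and Retnlg, which encode granule and secreted proteins of maturing neutrophils, stood at 3.02, 2.69, 2.65, 2.88, 2.80 and 2.83. On CFA3D against saline 11 of the 12 granule genes had negative values, with a median of -0.72. CFA6D replicate 6 was the highest library in 12 of 12. Leaving it out gave a median of 0.52 on CFA6D against saline, with 11 of 12 positive. Without it 6 of these 8 genes were still called against CFA3D, S100a8 at 1.69 and S100a9 at 1.89, and none against saline. Of 9 tested platelet genes, 2 were called on CFA6D against CFA3D (Gp9 at 1.48 and Gp1bb at 1.24), neither of them without CFA6D replicate 6. What part the cells behind these markers had in the Slc4a1 level was not tested.

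**Figure D5:**
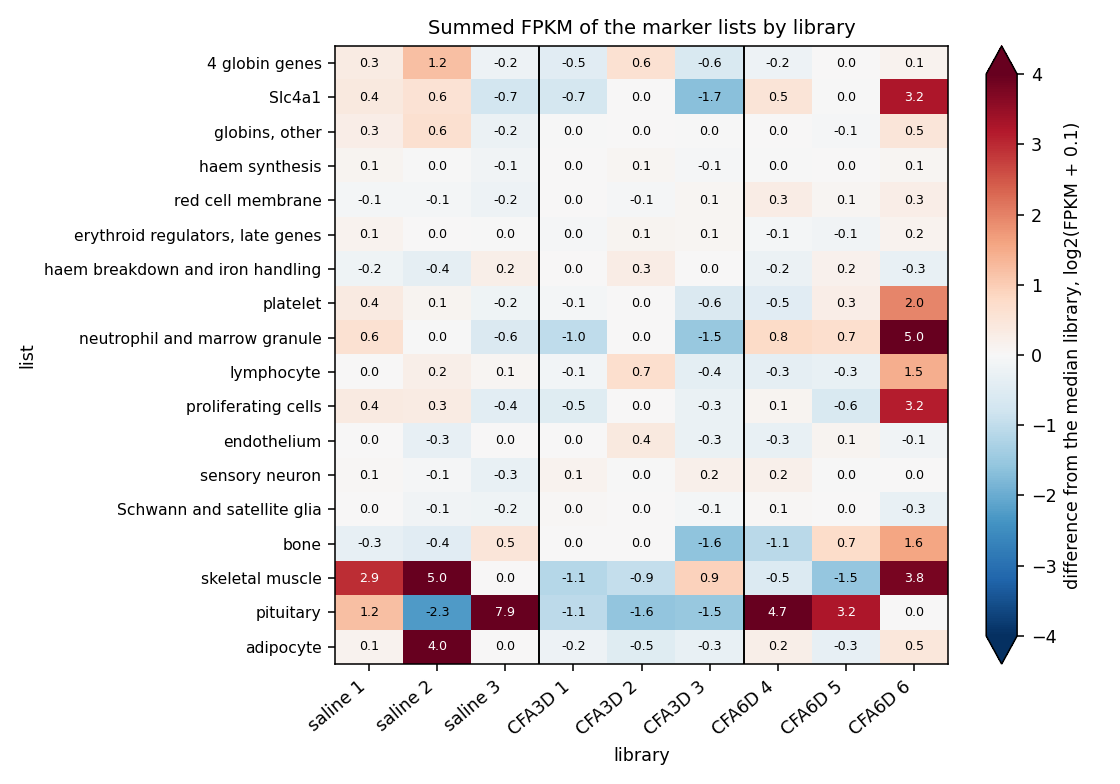
Difference of log2(FPKM + 0.1) from the median of the 9 libraries for the globin sum, Slc4a1 and the summed FPKM of 16 marker lists (rows) in each library (columns); colours end at 4 in either direction and the printed values go on. Granule and proliferation genes are high in CFA6D replicate 6 with Slc4a1, and adipocyte and muscle genes in saline replicate 2 with the globins.

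The remaining lists gave few calls. Of 8 bone genes, 1 was called on CFA6D against CFA3D, Ibsp (bone sialoprotein, 1.45), and not without CFA6D replicate 6. Of 7 muscle genes, Myh1 was called on CFA3D (-3.72) and Acta1 with both days (-2.94), and of 6 adipocyte genes, Adipoq and Cidec on CFA3D (-2.81 and -2.99) and Cidec and Ucp1 with both days (-2.62 and -2.88). None of these was called without saline replicate 2. No gene was called among 9 tested lymphocyte, 6 proliferation, 8 endothelial, 10 sensory neuron, 7 Schwann and satellite glia and 6 pituitary genes. No gene of any list reached an adjusted p under 0.05.

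The genes most like the globin sum over the 9 libraries were sought among 13169 genes with a mean of at least 1 FPKM, as a description without a test. Among those with the highest r were Chchd5, Armc2, Matr3 and Mif4gd, with 0.927, 0.892, 0.857 and 0.848, and Cd36, Zfp330, Dnase1l1, Rwdd4a and Cav1 with 0.846 to 0.835. Most of them varied little, between 1.27 times (Zfp330) and 2.54 times (Armc2), and Cd36, a fatty acid receptor, varied 12.4 times, at 5.86 FPKM in saline replicate 2 and at most 1.03 FPKM elsewhere. The lowest r were those of Iqcb1 (-0.937), Zfp316 (-0.933) and Spag7 (-0.927), which varied 1.19 to 1.37 times.

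The genes were annotated with 17 transcripts, of which 12 passed the filter. The full-length protein-coding transcripts carried most of each globin sum. Transcripts annotated as retaining an intron held 10.0% to 17.4% of Hba-a1, 9.48% to 15.1% of Hba-a2 and 1.23% to 2.71% of Hbb-bs. The alpha shares were highest in saline replicate 1 (17.4% and 15.1%) and CFA3D replicate 1 (14.0% and 13.3%). Alas2 was divided between 2 protein-coding transcripts of similar length. ENSMUST00000112715 was at 8.50, 14.6 and 5.65 FPKM in saline, 4.68, 10.2 and 2.24 on CFA3D and 5.90, 5.83 and 5.72 on CFA6D, and ENSMUST00000066337 at 7.54, 10.8 and 4.60, then 5.35, 9.41 and 6.39, then 4.70, 6.58 and 7.28. Both had their highest value in saline replicate 2. The full-length Slc4a1 transcript ENSMUST00000006749 held nearly all of the gene's signal, with 8.06 of 8.73 FPKM in CFA6D replicate 6, and was the only transcript of the 6 genes to be called, on CFA6D against CFA3D (log2 fold change 1.97, adjusted p = 0.916 by limma).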

How the data were processed

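Total RNA of 9 TG pools was depleted of ribosomal RNA and sequenced on stranded libraries by the authors, who trimmed the reads and mapped them to GRCm38 per their methods. The submitters' processing notes instead name Bowtie 0.12.2 and mm8. The authors deposited FPKM per transcript; the methods credit expression levels per gene to CLC Genomics Workbench, and do not say how FPKM was derived or how reads of near-identical genes were shared. All per-sample columns were used (0 left out).

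Transcripts were joined to GENCODE release 21 for mouse (101539 of 102122 mRNA transcripts) and summed per gene name. A linear model of the 3 groups was fitted to log2(FPKM + 0.1) in limma 3.58.1 (R 4.3.3) over all 9 libraries and all 16096 genes with a mean of at least 0.1 FPKM, with a trend in the mean. Calls needed p under 0.05, without adjustment, and a change of 1 or more on the log2 scale. Fold changes on this scale understate those of low genes. The fit and the estimate of the worth of 1 read pair were tested on simulated data. Exact permutation tests ran in Python 3.11.15 with numpy 2.4.6.

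The 6 genes, the 16 lists and the rules were chosen with earlier results of these data known. Named genes were the 6, the called genes of each list or else its most abundant 2, and the 10 genes most like and 3 least like the globin sum; others are marked as chosen later, which holds for Alas1, Fech and Hmox1 too. Some genes that this rule names are not reported here. Alternatives were pseudocounts of 0.01 and 1, a mean of at least 1 FPKM, no filter, 3 other scalings, the groups compared alone, the most abundant transcript, no trend, a replicate block and leaving out each library. The pools are replicates of tissue, and nothing states that their mice were handled on separate days.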

Additional observations from a re-analysis of the deposited data

Results flagged for a closer look

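Groups of 3 libraries are too small for the test of a single far-off sample, so none was run. For Slc4a1 the 2 time points after CFA differed in the test of the difference itself, with a log2 fold change of 2.03 on CFA6D against CFA3D. Its values were 1.24, 0.835 and 8.73 FPKM on CFA6D and 0.479, 0.840 and 0.194 FPKM on CFA3D. The adjusted p was 0.641 by limma, and without CFA6D replicate 6 the value was 1.04 and no longer called.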

How the results depend on the processing

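The count of the 6 genes called on CFA6D against CFA3D was 0 with a pseudocount of 1 and 0 with only the groups compared, and 0 to 1 when single libraries were left out (0 without CFA3D replicates 1 or 3 or CFA6D replicate 6). Leaving out both saline replicate 3 and CFA6D replicate 6, chosen after seeing the data, gave 1 call on CFA3D against saline (Slc4a1, -1.28) and 1 on CFA6D against CFA3D (Slc4a1, 1.04). There Slc4a1 was at -0.24 on CFA6D and -0.76 with both days against saline, and Hbb-bs and Hbb-bt at -0.0086 and -0.078 on CFA6D against CFA3D. Alas2 on CFA6D against CFA3D was 0.0020 with the same sum in each library, 0.0155 with median ratio scaling and 0.28 with its highest transcript. Leaving out single libraries moved CFA6D against CFA3D between -0.0075 and 0.56 for Hba-a1, -0.0198 and 0.53 for Hba-a2, -0.20 and 0.48 for Hbb-bs, -0.20 and 0.40 for Hbb-bt, and -0.20 and 0.28 for Alas2. It moved Slc4a1 with both days against saline between -0.35 and 0.46 in the model, and between -0.46 and 0.52 in the exact permutation test. Correlations moved between 0.27 and 0.72 for alpha globin with Slc4a1. With the globin sum they moved between 0.38 and 0.81 for other globins, 0.35 and 0.72 for haem synthesis, -0.81 and -0.18 for sensory neuron, 0.22 and 0.76 for muscle, and 0.0151 and 0.89 for adipocyte genes. Without the 2 farthest libraries r was 0.74 for Alas2 with Slc4a1, 0.59 for the globin sum with other globins and -0.0426 for Slc4a1 with lymphocyte genes. The globin sum gave 0.82 with muscle genes in linear FPKM and -0.71 with pituitary genes in deviations from group means. The causes were not tested.

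With a replicate block on CFA3D against saline, the 6 genes kept their values (-0.33 for Alas2 to -0.87 for Slc4a1) with an unadjusted p under 0.05 for all 6 and an adjusted p of at least 0.999 by limma, and 0 were called, while the genes called over the table numbered 115 instead of 55. Over all genes tested, same-numbered libraries did not deviate together (r of 0.087, -0.080 and 0.030), so the numbers were not taken as pairs. In each of the 6 genes, however, replicate 2 was the highest and replicate 3 the lowest of both saline and CFA3D. These values do not settle whether the shared numbers mark pairs, which the labels do not state. Of 480 alternative fold changes of the 6 genes, 453 kept their sign and their side of the threshold, 21 changed sign, 5 fell short of the threshold and 1 passed it. Depth limits Slc4a1, with as few as 31.8 read pairs, more than the globins, with at least 4262.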
